A study of Vitis vinifera with 45 samples.

Results

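In the berry skin of Crimson Seedless (CS), a red table grape, 150 transcripts reached at 75 days after flowering (DAF) on each of 3 commercial rootstocks a mean level that no graft-free or self-grafted group showed at any stage sampled. They were chosen from group means of log2(TPM + 1), where TPM is a level scaled for transcript length and library size. The score of a transcript was the lowest of the 3 heterograft means at DAF75 minus the highest of the 6 means of the graft-free and self-grafted skins. Of 29958 transcripts listed, 12778 had a mean of at least 5 TPM over the 9 heterografted libraries of DAF75, and 1182 of these had a score above 0. The 150 with the highest scores are described. The levels of the heterografts at DAF75 and of both controls at every stage made this choice, so they are given as a description without a test. The heterografts at DAF45 and DAF105 had no part in the choice, and the tests are confined to them.

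The study asked how rootstocks change berry coloring and sequenced RNA from skins of 5 graft types. These were CS vines left ungrafted (CS), CS grafted on itself (CS/CS), and the heterografts CS/101-14, CS/110R and CS/SO4, in which a CS scion grew on the rootstock 101-14MG, 110R or SO4. All shared the CS scion and received no other treatment in the labels, and each was sampled at the stages DAF45, DAF75 and DAF105, named for the days after flowering, with 3 biological replicates, which gave 15 groups and 45 libraries. The labels do not say whether the replicates of a group came from separate vines, so p-values measure the spread between these samples.

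Grape berries first grow hard and green, then pass veraison, the onset of ripening, when they soften, take up sugar and, in red varieties, begin to make anthocyanins in the skin. Grafting joins a fruiting scion to the roots of another vine, so water, mineral nutrients and hormones reach the berry through a root system of a different genotype. Most of the 150 identifiers could not be paired with a gene name or function here, and transcripts without one are therefore described by identifier and level. The identifier gives the chromosome in the 12X assembly of Vitis vinifera (VIT_04s0023g00530 is on chromosome 4), and positions within it are not given in the files. Whole skins were sequenced, so fewer cells of a type and less RNA per cell cannot be told apart.

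Library totals ranged from 16387269 to 20765329 counts. The nearest library over 45 libraries was a replicate of the same group for 44, and the remaining 1, replicate 1 of CS/101-14 at DAF45, lay nearest to CS/SO4 of the same stage. Counts and named calls that changed without that library are given both ways. Among the pathway names in the study's list, F3H (VIT_18s0001g14310) and LDOX (VIT_18s0001g03430) had group means of 152 to 777 TPM and 1.71 to 130.2 TPM. At DAF105, the LDOX mean was 11.8 TPM in CS/CS and 94.7 TPM in CS. Of the other pathway names in the study's list, the transcript named CHI (VIT_05s0094g00350) had group means of 10.3 to 18067 TPM and is also listed under a cell wall term. CHS (VIT_16s0100g00950) had means of 0.403 to 40.6 TPM, with the highest in CS/CS. These names were used unchecked and the levels differed between them, so none is read as a marker of pigmented skin.

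The 150 transcripts ranged from weak to highly abundant in the heterografted skins of DAF75. The rule used these levels, so nothing is read from a higher median than that of other transcripts. Their mean over the 9 libraries ranged from 5.47 to 995 TPM, with a median of 40.8 TPM against 21.8 TPM for all 12778 transcripts of that filter. A mean of 100 TPM or more was found for 37, and 20 were under 10 TPM. In every heterografted library of DAF75, 118 had at least 100 counts, and 5 had under 10 counts in at least 1 of these libraries. The lowest heterograft mean exceeded the highest control mean, both in TPM, 1.58-fold in the median transcript and by 1.04-fold to 13.3-fold over all, with a ratio of at least 2 for 27. For 100 of the 150, all 9 heterografted libraries of DAF75 lay above all 18 control libraries, where 2.42% of the 12778 transcripts did so. The rule used this contrast, so nothing is read from the difference.

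The median of the 150 on the log2(TPM + 1) scale followed a peak in the heterografts and a rise in the controls, which in CS/CS came mostly after DAF75. At DAF45, the library medians ranged from 2.53 to 3.38 over all 5 graft types. CS/SO4, at 3.20 to 3.27, lay above CS/110R and CS/CS, and the other pairs of graft types overlapped. At DAF75, they were 5.30 to 5.41 in CS/101-14, 5.15 to 5.16 in CS/110R and 5.40 to 5.53 in CS/SO4, against 3.71 to 3.90 in CS and 2.74 to 3.39 in CS/CS. At DAF105, the medians of the heterografts had come down to 4.06 to 4.41, while those of CS were 4.08 to 4.21 and those of CS/CS 3.81 to 4.06. From DAF75 to DAF105, the group mean was lower for 146 of the 150 (CS/101-14), 142 (CS/110R) and 148 (CS/SO4), and the median changes on that scale were −0.997, −0.973 and −1.01. Over the 12778 transcripts, 67.6%, 55.1% and 68.2% were lower, and the median change was −0.17, −0.06 and −0.22. In the controls, the same interval gave 88 of the 150 higher in CS and 114 in CS/CS, against 32.5% and 34.7% of the 12778. The rule used the heterografts of DAF75 and the controls, so nothing is read from these differences.

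**Figure D1:**
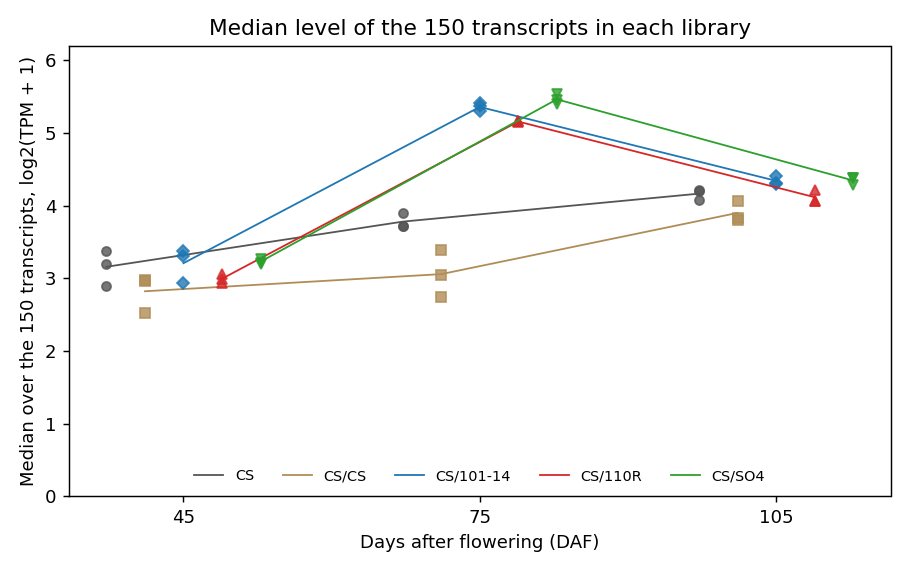
Median of the 150 transcripts in each of the 45 libraries, as log2(TPM + 1), against days after flowering; points are libraries, lines join the means of 3 libraries, and graft types are set side by side within a stage. The heterografted libraries of DAF75 lie between 5.15 and 5.53 and the control libraries of that stage between 2.74 and 3.90.

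The control group that came closest was usually a ripe one. The highest control mean was that of CS at DAF105 for 51 of the 150, CS at DAF75 for 40, CS/CS at DAF105 for 33, and CS/CS at DAF75 for 8. For 9 each it was CS and CS/CS at DAF45. The lowest heterograft mean at DAF75 was that of CS/110R for 76, CS/101-14 for 41 and CS/SO4 for 33. Of all 15 groups, a heterograft at DAF75 had the highest mean for 145, most often CS/SO4 with 66 and CS/101-14 with 64, and CS/110R with 15. The 3 heterograft means at DAF75 lay within 0.34 of each other on the log2(TPM + 1) scale in the median transcript, and over 1 apart for 18. The widest of these was VIT_07s0005g01080, with 34.8, 9.23 and 34.4 TPM in CS/101-14, 2.47, 5.94 and 3.40 TPM in CS/110R and 4.79, 8.68 and 14.9 TPM in CS/SO4.

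Of the 5 transcripts that peaked elsewhere, named after their values were seen, VIT_19s0090g01470 and VIT_06s0004g00790 were highest at DAF45 and the others at DAF105. VIT_19s0090g01470 had 165, 226 and 317 TPM in CS/SO4 at DAF45 and 152, 87.3 and 152 TPM at DAF75. VIT_06s0004g00790 had 17.8, 10.8 and 18.9 TPM in CS/110R at DAF45 and 10.99, 12.6 and 11.4 TPM at DAF75. The libraries of the 2 stages overlapped for the latter only. VIT_08s0007g07330 and VIT_00s0201g00080 were highest in CS/101-14 at DAF105, with 115, 48.5 and 105.3 TPM and 74.0, 38.5 and 54.1 TPM. VIT_15s0024g01980 had 19.1, 18.3 and 16.3 TPM in CS/110R at DAF105, above all 3 libraries of CS/110R at DAF75.

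The transcript with the highest score, VIT_04s0023g00530, stood out most in the heterografts of DAF75. It had 68.2, 97.2 and 43.3 TPM in CS/101-14 at that stage, 73.8, 78.7 and 119 TPM in CS/110R, and 127, 198 and 55.0 TPM in CS/SO4. None of the 18 control libraries exceeded 5.81 TPM, a gap in TPM of 13.3-fold between the lowest heterograft mean and the highest control mean. At DAF105, the heterografts had come back to 2.75 to 15.3 TPM, and DAF45 held 0 to 3.50 TPM. All 3 heterograft means of DAF105 still lay above every control mean. With under 10 counts in every DAF45 library, it could enter the comparison of DAF105 with DAF45 only through the later stage, in CS/101-14, and no test is drawn from it.

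VIT_04s0023g00530 has close neighbours on chromosome 4 with the same profile. The rule did not use runs of neighbours, but it asked each transcript it chose for a higher level in the heterografts at DAF75 than in the controls. The shared peak is therefore what the rule asked for. VIT_04s0023g00520, 1 gene number before it, had 41.8, 65.3 and 33.9 TPM in CS/101-14 at DAF75, 37.6, 64.3 and 89.8 TPM in CS/110R, and 104, 173 and 56.2 TPM in CS/SO4, with at most 13.7 TPM in the controls. In each heterograft, the library that was highest for the former was highest for the latter too. VIT_04s0023g00550 was far lower, at 2.38 to 3.44 TPM in CS/101-14, 4.52 to 6.48 TPM in CS/110R and 6.34 to 11.96 TPM in CS/SO4, and at 2.24 TPM or less in the controls. In all 3, CS/SO4 had the highest mean at DAF75. Reads from near-identical copies may be split between neighbours, and how the counting treated them is not given in the sources used here, so the single levels within such a run are uncertain.

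In all, 26 of the 150 lay within 10 gene numbers of another of them, in 12 runs, of which 10 were pairs and 2 held 3 transcripts. How often other transcripts lie so close was not counted, so no clustering is read from these numbers. The other run of 3, on chromosome 2, differed within itself. VIT_02s0087g00380 had 89.5, 119 and 157 TPM in CS/101-14 at DAF75, 122, 96.4 and 124 TPM in CS/110R and 132, 107 and 96.0 TPM in CS/SO4, against 5.66 to 26.5 TPM in the controls. At DAF105, it was back at 24.01 to 27.7 TPM in CS/101-14, 7.78 to 10.5 TPM in CS/110R and 5.22 to 20.2 TPM in CS/SO4. Its libraries of DAF105 overlapped those of DAF45 in CS/101-14 and CS/SO4 and lay below them in CS/110R, with log2 fold changes of 1.07 ± 0.47, −0.69 ± 0.38 and −0.05 ± 0.50 (SE) and adjusted p = 0.093, 0.14 and 0.93 in edgeR's quasi-likelihood test. Without replicate 1 of CS/101-14 at DAF45, the library that stood apart, the first became 1.73 ± 0.32 (SE, adjusted p = 0.0048) and was called. VIT_02s0087g00340 peaked lower, at 15.5 to 26.6 TPM over the 9 heterografted libraries, and was called higher at DAF105 than at DAF45 in all 3 heterografts, with log2 fold changes of 1.49 ± 0.15, 1.07 ± 0.19 and 1.56 ± 0.16 (SE). In CS/110R, this call was lost without replicate 1 of DAF45 or replicate 3 of DAF105, where it ranged down to 0.90. VIT_02s0087g00350 had 25.1 to 40.8 TPM in the heterografts at DAF75, overlapped the controls, which reached 36.1 TPM in CS/CS at DAF75, and, in CS/101-14, rose from DAF45 to DAF105 by a log2 fold change of 1.29 ± 0.27 (SE, adjusted p = 0.0081).

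Among the other transcripts of high score, 3 rested on few reads. VIT_18s0001g06490 had 12.05 to 34.4 TPM in the heterografts at DAF75 against 0 to 8.23 TPM in the controls. VIT_03s0038g01080 had 41.4 to 70.6 TPM in CS/SO4, 14.0 to 18.7 TPM in CS/110R and 5.31 to 24.1 TPM in CS/101-14, where the lowest library lay under the highest control library of 8.77 TPM. VIT_15s0048g01280 had 1.58 to 7.96 TPM, from 1 to 5 counts in a library, and 0 to 1.84 TPM in the controls, so its separation is not resolved at this depth. It was the only transcript of the 150 with 3 counts or fewer in each of the 18 control libraries. VIT_01s0150g00460, in contrast, was abundant, with 646, 707 and 650.4 TPM in CS/101-14, 529.7, 550.2 and 529.7 TPM in CS/110R and 978, 709 and 969 TPM in CS/SO4, where controls reached 369 TPM.

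**Figure D2:**
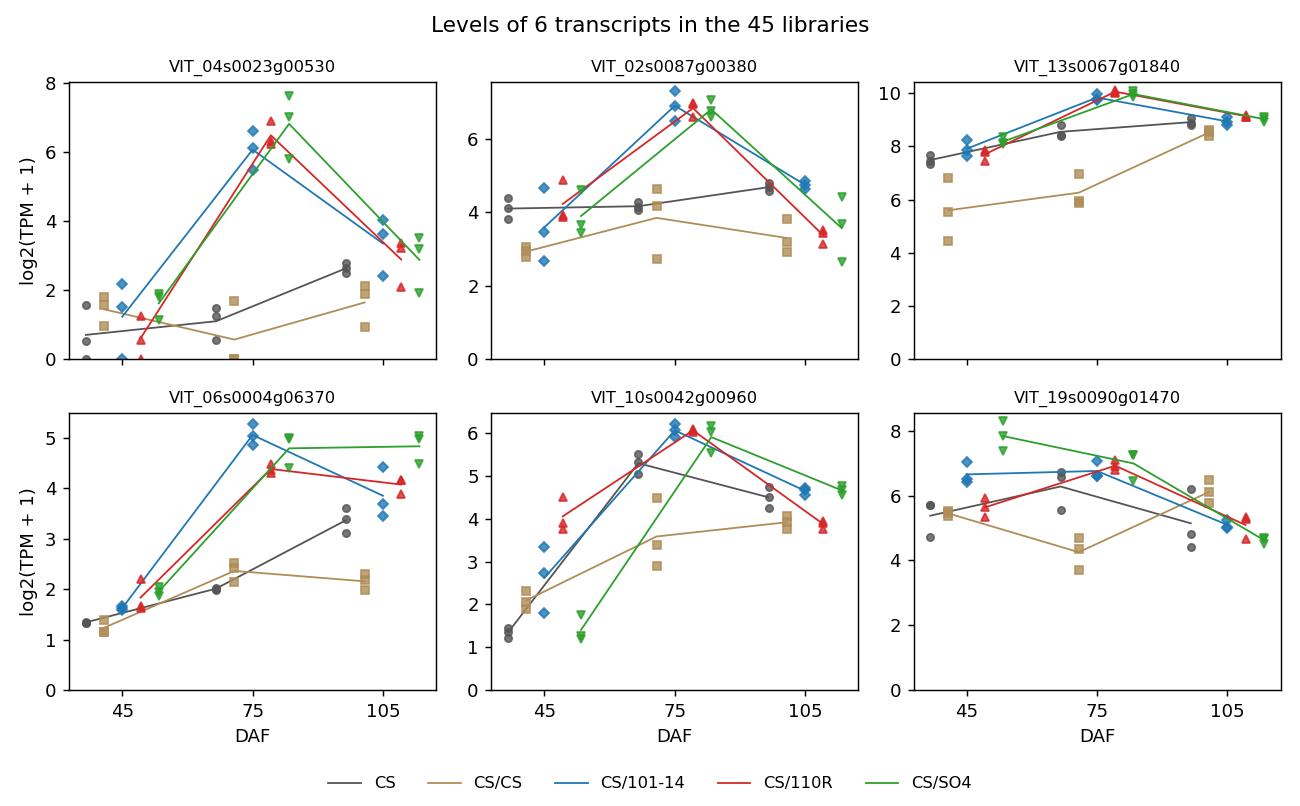
Level of 6 of the 150 transcripts in each library as log2(TPM + 1) against DAF; points are libraries and lines join the means of 3 libraries per graft type. VIT_04s0023g00530 and VIT_02s0087g00380 peaked at DAF75 and came back by DAF105, VIT_06s0004g06370 stayed high in CS/SO4 at DAF105, and VIT_19s0090g01470 was highest in CS/SO4 at DAF45.

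The most abundant transcript, VIT_13s0067g01840, was 1 of 4 members that carry a term in the study's supplementary list of enriched functions, here ferric iron binding, an activity of proteins such as ferritin that store iron. It had 861, 887 and 997 TPM in CS/101-14 at DAF75, 1049.8, 1116 and 1032 TPM in CS/110R and 915.2, 1085 and 1008 TPM in CS/SO4, with a highest control library of 531 TPM in CS at DAF105. All 9 libraries were above all 18 controls. Its level rose from 174 to 325 TPM at DAF45 to 449.5 to 586 TPM at DAF105 in the heterografts. This rise was called in each, and the log2 fold changes for CS/101-14, CS/110R and CS/SO4 were 1.17 ± 0.14, 1.68 ± 0.13 and 1.10 ± 0.10 (SE, adjusted p = 0.00082, 1.8e-05 and 1.8e-05 in edgeR's quasi-likelihood test).

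The other 3 members with a term were listed under transfer of glycosyl groups, the activity of enzymes that attach sugars to acceptors such as flavonoids, hormones or cell wall polymers. VIT_06s0004g06370 had 18.8 to 37.9 TPM in the heterografts at DAF75 and at most 11.2 TPM in the controls. It rose in every heterograft, from 1.99 to 3.61 TPM at DAF45 to 9.87 to 20.5 TPM in CS/101-14, 13.8 to 17.0 TPM in CS/110R and 21.3 to 31.8 TPM in CS/SO4 at DAF105. Its log2 fold changes were 2.89 ± 0.28, 2.85 ± 0.22 and 3.55 ± 0.19 (SE) in that order, and in CS/SO4 the level of DAF105 overlapped that of DAF75. VIT_11s0052g01600, at 42.6 to 76.2 TPM at DAF75, also rose in all 3, with log2 fold changes of 1.98 ± 0.40, 2.27 ± 0.51 and 1.98 ± 0.17 (SE). VIT_10s0116g00530 went another way. It had 94.5, 150.3 and 161 TPM in CS/110R at DAF45 and 48.2, 34.6 and 37.6 TPM at DAF105, a fall in log2 fold change of −1.52 ± 0.23 (SE, adjusted p = 0.00055). In CS/101-14 and CS/SO4, its log2 fold changes were 0.72 ± 0.36 and 0.87 ± 0.08 (SE) and not past the fold threshold.

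The supplementary list that gave these terms names 68 transcripts in its upregulated section as far as the copy used here goes, of which 4 were among the 150 and 22 had a score above 0. Of the 12778 transcripts with a mean of at least 5 TPM, 150 were members and 1182 had a score above 0. The scores of the list were counted without that minimum. The study chose it on these samples, so it is not independent evidence of a direction. Of its transcripts, 49 of 65 tested were called higher at DAF105 than at DAF45 in CS/101-14, 55 of 65 in CS/110R and 49 of 64 in CS/SO4, with 0, 1 and 1 lower, where 12.9%, 16.9% and 15.1% of all transcripts tested were higher and 19.5%, 23.8% and 21.9% lower. By term, 3 of 22 glycosyl transfer transcripts and 1 of 4 of ferric iron binding were members, and none of the 22 of cell wall organization, the 22 of coenzyme metabolism or the 4 of phosphoenolpyruvate carboxykinase. At the share of members among all transcripts, lists this short would often hold none, so no contrast between terms is read. None of the 19 genes named in another supplementary list of the study was among the 150. That list holds the pathway names LDOX, CHI, F3H and CHS, used unchecked here. Nothing is read from this absence, since the list is short and most of the 150 have no gene name here. Of those 19, ACBP6 and BHLH77 had a score above 0, and 8, 8 and 7 were called higher and 6, 7 and 7 lower at DAF105 than at DAF45 in CS/101-14, CS/110R and CS/SO4.

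Further abundant members were also higher at DAF105 than at DAF45 on some or all rootstocks. VIT_18s0001g11930 had 482 to 669 TPM over the 9 heterografted libraries of DAF75. It went from 20.8, 44.7 and 55.7 TPM at DAF45 to 343, 339 and 335 TPM at DAF105 in CS/101-14, from 11.03, 8.08 and 11.6 to 381, 354 and 406 TPM in CS/110R, and from 15.2, 26.1 and 25.2 to 377, 391 and 382 TPM in CS/SO4. The stages did not overlap in any heterograft, and the log2 fold changes were 3.19 ± 0.39, 5.47 ± 0.18 and 4.36 ± 0.20 (SE, adjusted p = 0.00095, 5.8e-07 and 6.7e-07). VIT_01s0026g02620 had 612 to 1317 TPM at DAF75 and rose likewise, by log2 fold changes of 4.29 ± 0.60, 5.65 ± 0.38 and 2.85 ± 0.26 (SE). VIT_14s0108g00740 had 784 to 1184 TPM at DAF75, but CS/CS reached 863 TPM at DAF45, so its libraries overlapped with the controls. With a library left out, its log2 fold change from DAF45 to DAF105 was 1.07 to 2.24 (CS/101-14) and 3.82 to 4.08 (CS/110R). In CS/SO4 it was 0.97 to 1.59, and the call was lost in 1 of 6 fits. VIT_19s0140g00210 had 296 to 538 TPM at DAF75 and 46.8 to 257 TPM in the controls. It was called higher at DAF105 than at DAF45 in CS/SO4 only. With a library left out, its log2 fold change there was 0.90 to 1.11, and the call was lost in 3 of 6 fits.

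The heterografts were then compared between DAF45 and DAF105, 1 comparison per rootstock, to see whether the 150 were at a higher level after the peak than before it. A transcript entered a test when 3 or more of the 6 libraries held 10 or more counts for it, and a call needed an absolute log2 fold change above 1 and an adjusted p of 0.05 or less over all transcripts tested. In CS/101-14, 135 of the 150 were tested, and 66 were called higher and 3 lower, where 12.9% and 19.5% of all transcripts tested were. In CS/110R, 134 were tested and 76 were called higher and 5 lower, against 16.9% and 23.8%. In CS/SO4, 136 were tested and 77 were called higher and 4 lower, against 15.1% and 21.9%. The median log2 fold change of the tested members was 1.09, 1.12 and 1.20, and that of all transcripts tested −0.02, −0.03 and −0.02. Without replicate 1 of CS/101-14 at DAF45, 66 were called higher and 4 lower, where 2446 and 3191 of all 17123 transcripts tested were.

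A member with few reads at DAF45 could pass the filter through its DAF105 libraries alone, as was the case for 5, 8 and 7 of those tested in CS/101-14, CS/110R and CS/SO4, so the counts over tested members are no support on their own. Over all 150, the group mean of log2(TPM + 1) was higher at DAF105 than at DAF45 for 132, 127 and 120 members with CS/101-14, CS/110R and CS/SO4, where it was higher for 44.6%, 41.9% and 40.7% of the 12778 transcripts. The 3 libraries of DAF105 lay wholly above those of DAF45 for 94, 93 and 100 of the 150, where 26.7%, 28.8% and 28.1% of the 12778 transcripts did, and wholly below for 4, 14 and 15, where 36.0%, 43.9% and 46.9% did. In the controls, the group mean was higher at DAF105 than at DAF45 for 129 in CS and 123 in CS/CS, against 41.1% and 38.8%. Over the 3 comparisons, 50 members were called higher in all and 99 in at least 1, against 8.41% and 21.6% of the 18599 transcripts tested in at least 1 of them, and 12 members could not be tested in any. In at least 1 comparison, 10 were called lower, against 29.5%, and 2 were called higher with 1 rootstock and lower with another, against 0.290%. None was called lower in all 3.

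**Figure D3:**
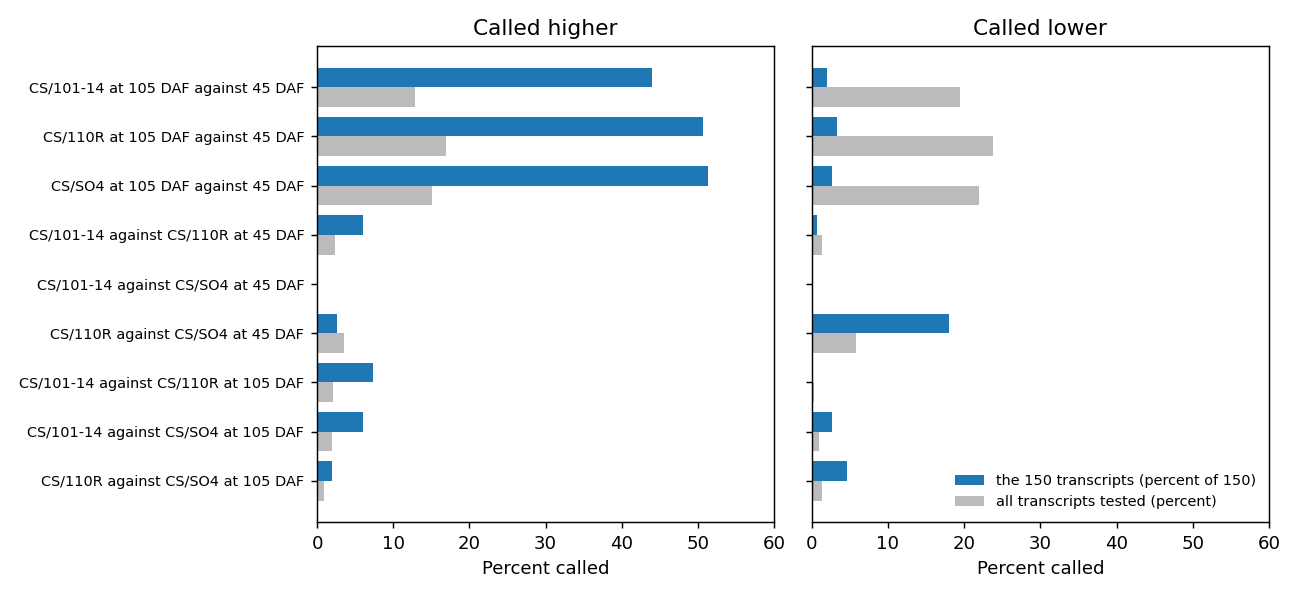
Percent of transcripts called higher (left) and lower (right) in the 9 comparisons that the choice of the 150 did not use; blue bars are calls among the 150 as a percent of 150 and grey bars calls among all transcripts tested. From DAF45 to DAF105, 44.0% to 51.3% of the 150 were called higher, against 12.9% to 16.9% of all tested.

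The largest rises were fitted for transcripts that were nearly absent at DAF45. VIT_10s0042g00830 had 0.0669, 0.0601 and 0.0741 TPM in CS/101-14 at DAF45 and 4.51, 4.59 and 5.15 TPM at DAF105. In CS/110R, 4 counts over 3 libraries at DAF45 stood against 666 at DAF105, a ratio per library total of 171 with an exact 95% interval of 66.5 to 630, and in CS/SO4, 8 stood against 633, a ratio of 87.8 (44.3 to 204). VIT_02s0033g00410 had 4 counts over the 3 libraries of CS/SO4 at DAF45 and 568 at DAF105, a ratio of 158 (61.2 to 580), and in CS/110R it went from 0, 0.346 and 0.421 TPM to 17.1, 13.1 and 12.2 TPM. In these cases the transcript entered the test only through its DAF105 libraries, so the values are given without a p, and the intervals cover counting error only. In CS/101-14, VIT_02s0033g00410 had 0.0866, 8.35 and 4.87 TPM at DAF45, so that replicate 1 stood far below the others. The log2 fold change there was 3.30 ± 0.95 (SE; edgeR's quasi-likelihood test, adjusted p = 0.025), and the call was kept without replicate 1 or 2 of DAF45 and lost without any other of the 6 libraries, where it ranged down to 2.68.

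Fewer of the 150 fell. In CS/SO4, VIT_19s0090g01470 fell from 165, 226 and 317 TPM to 25.0, 21.9 and 24.5 TPM, with a log2 fold change of −3.09 ± 0.23 (SE; edgeR's quasi-likelihood test, adjusted p = 7.4e-06). It also fell in CS/101-14, from 89.6, 85.5 and 129.9 TPM to 31.1, 37.4 and 31.7 TPM, at −1.51 ± 0.19 (SE), while CS/110R, at 39.3 to 59.5 TPM before and 24.4 to 39.1 TPM after, showed −0.27 ± 0.24 and no call. In CS/101-14, VIT_10s0116g00410 fell from 11.7, 26.7 and 26.2 TPM to 5.67, 2.46 and 2.43 TPM, with a log2 fold change of −2.47 ± 0.51 (SE, adjusted p = 0.0069). It also fell in CS/110R, at a log2 fold change of −1.24 ± 0.34 (SE, adjusted p = 0.012), a call lost without replicate 2 of DAF105, where it was −0.96, and it showed −0.13 ± 0.25 and no call in CS/SO4. In CS/110R, VIT_01s0011g06580 fell from 7.997, 7.96 and 6.60 TPM to 2.90, 2.31 and 1.37 TPM, with a log2 fold change of −1.54 ± 0.27 (SE, adjusted p = 0.0012). The libraries of the 2 stages did not overlap in these called falls. The 2 members called in opposite directions were VIT_06s0004g05330, lower in CS/101-14 and higher in CS/SO4, and VIT_01s0150g00460, higher in CS/110R and lower in CS/SO4. VIT_06s0004g05330 went from 8.88, 5.14 and 6.60 TPM to 1.69, 1.29 and 2.08 TPM in CS/101-14 and from 3.14, 2.24 and 1.31 TPM to 4.81, 5.43 and 5.81 TPM in CS/SO4, with log2 fold changes of −1.87 ± 0.26 and 1.51 ± 0.30 (SE).

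A small group stayed high or rose further on CS/110R after DAF75. The group mean was higher at DAF105 than at DAF75 for 8 of the 150 in CS/110R, 4 in CS/101-14 and 2 in CS/SO4, and 1 of the 8 was also among the 4. Over the 12778 transcripts, 44.9%, 32.4% and 31.8% were higher in that order, so CS/110R had the largest share there too. CS/110R also had the lowest heterograft mean at DAF75 for 76 of the 150. The excess in CS/110R is therefore not read as particular to these transcripts. VIT_18s0089g01270 had 87.8, 253 and 165 TPM in CS/110R at DAF75 and 465, 228 and 531 TPM at DAF105, a difference of 1.31 in mean log2(TPM + 1). VIT_09s0002g06790 differed by 1.29, VIT_04s0008g01520 by 1.14, VIT_12s0035g01910 by 0.98, VIT_15s0024g01980 by 0.77 and VIT_04s0008g01580 by 0.71. VIT_07s0005g01080 and VIT_09s0002g04580 differed by 0.26 and 0.08. In CS/101-14 and CS/SO4, VIT_18s0089g01270 went the other way, from 427 to 1132 TPM down to 82.7 to 683 TPM and from 366 to 859 TPM down to 43.0 to 115 TPM. Since DAF75 chose the transcripts, these changes are given without a test.

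**Figure D4:**
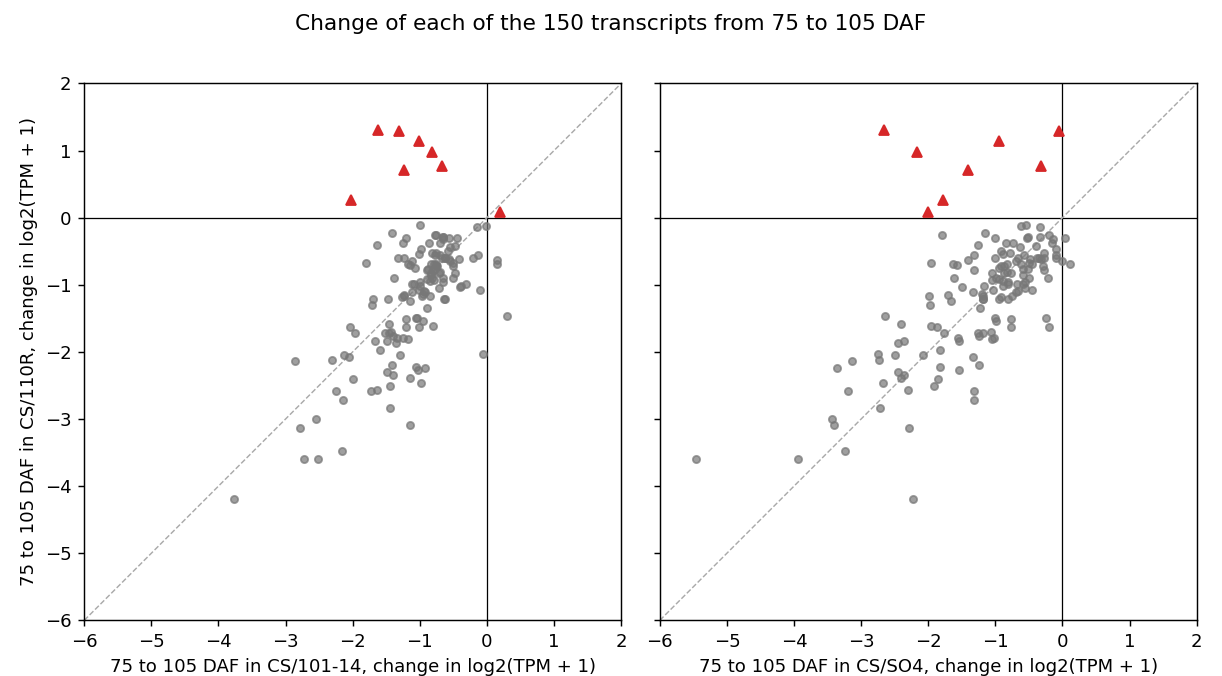
Change of each of the 150 transcripts from DAF75 to DAF105 as a difference of mean log2(TPM + 1), in CS/110R on the vertical axis against CS/101-14 (left) and CS/SO4 (right); the dashed line marks equal change. Red triangles are the 8 transcripts higher at DAF105 than at DAF75 in CS/110R, and 142 lie below 0 on the vertical axis.

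Of these, VIT_04s0008g01580, VIT_04s0008g01520, VIT_12s0035g01910 and VIT_18s0089g01270 varied widely between replicates, and in the same libraries. In CS/101-14 at DAF105, VIT_12s0035g01910 had 229, 558 and 1305 TPM, VIT_04s0008g01580 135, 265 and 559 TPM, VIT_04s0008g01520 11.9, 38.9 and 65.2 TPM, and VIT_18s0089g01270 82.7, 228 and 683 TPM. Replicate 3 was the highest for all 4, as it was for 66 of the 150. In CS/110R at DAF105, replicate 3 was also the highest for all 4, as for 41 of the 150, and in CS/SO4 replicate 3 was the lowest for all 4, as for 52. The share among all transcripts was not counted, and 41 and 52 lie near an even split of the 150 over 3 replicates. No replicate pattern of the 150 is therefore read from these numbers. What the libraries shared was not tested. In the controls, the 4 were lower, with at most 60.6 TPM for VIT_04s0008g01580, 3.56 TPM for VIT_04s0008g01520, 139 TPM for VIT_12s0035g01910 and 106 TPM for VIT_18s0089g01270, and the last overlapped with the lowest library of CS/110R at DAF75.

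**Figure D5:**
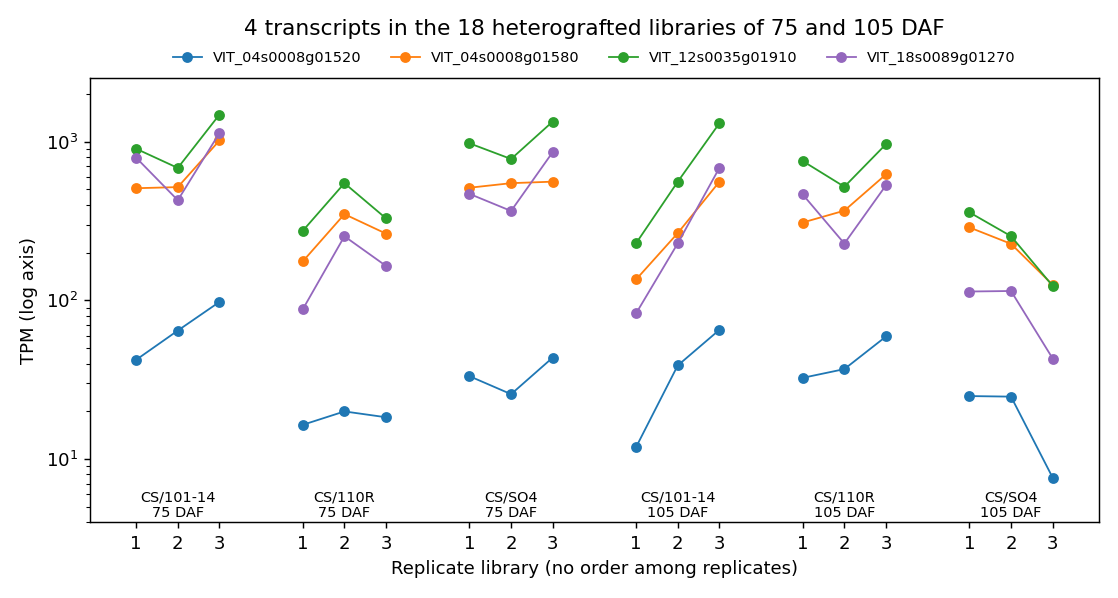
TPM of 4 of the 150 transcripts on a log axis in the 18 heterografted libraries of DAF75 and DAF105; each point is a library, and lines join the replicates of a group, which have no order. In CS/SO4 at DAF105, replicate 3 has the lowest value of its group for all 4, and in CS/101-14 and CS/110R at DAF105 the highest.

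Their levels at DAF45 and DAF105 also lay apart on CS/110R for all but VIT_18s0089g01270. VIT_04s0008g01520 had 0.186, 0.757 and 1.46 TPM at DAF45 and 32.5, 36.9 and 59.2 TPM at DAF105 in CS/110R, and, with under 10 counts in every DAF45 library, it entered the test only through DAF105 and is given without a p. VIT_04s0008g01580 rose from 22.0, 30.4 and 34.6 TPM to 309, 367 and 622 TPM, with a log2 fold change of 4.17 ± 0.35 (SE, adjusted p = 2.4e-05 in edgeR's quasi-likelihood test). VIT_12s0035g01910 went from 88.1, 129.9 and 237 TPM to 754, 519.5 and 964 TPM, with 2.55 ± 0.40 (SE, adjusted p = 0.00073). VIT_18s0089g01270 overlapped between the stages, since replicate 3 of DAF45 had 294 TPM and replicate 2 of DAF105 228 TPM, and its call of 1.79 ± 0.64 (SE, adjusted p = 0.036) was lost without replicate 1 or 2 of DAF45 or replicate 1 or 3 of DAF105, where it ranged down to 1.35. In CS/101-14, replicate 1 of DAF45, the library that stood apart, had 636 TPM for VIT_12s0035g01910 and 655 TPM for VIT_18s0089g01270 against 118 to 291 and 62.3 to 209 TPM in the other replicates. The log2 fold changes of these transcripts in CS/101-14 were 1.18 ± 0.74 and 0.28 ± 0.96 (SE), and without that library 1.85 ± 0.74 and 1.37 ± 0.90 (SE, adjusted p = 0.072 and 0.23), with no call either way.

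Before the peak, at DAF45, CS/110R was compared with CS/SO4. Of 123 members tested in this comparison, 4 were called higher in CS/110R and 27 lower, where 3.50% and 5.79% of all transcripts tested were. The median log2 fold change was −0.34 over the members tested and 0.02 over all. VIT_10s0042g00960 had 12.4, 14.0 and 21.8 TPM in CS/110R and 2.34, 1.40 and 1.30 TPM in CS/SO4, a log2 fold change of 3.15 ± 0.32 (SE; edgeR's quasi-likelihood test, adjusted p = 0.0014). VIT_01s0026g02620 had 8.89, 4.97 and 4.11 TPM in CS/110R and 36.1, 81.6 and 53.8 TPM in CS/SO4, a log2 fold change of −3.38 ± 0.38 (SE, adjusted p = 0.0019). VIT_01s0150g00460, VIT_14s0108g00740 and VIT_08s0007g07330 were lower in CS/110R by similar amounts, with −3.20 ± 0.39, −2.93 ± 0.42 and −2.98 ± 0.48 (SE). None of these libraries overlapped between the rootstocks. Without replicate 2 of CS/SO4, 20 members were called in place of 31, with 2 higher and 18 lower. In that fit, 366 and 644 of all 17533 transcripts tested were.

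The comparisons with CS/101-14 at DAF45 hung on single libraries. Against CS/110R, 124 members were tested and 9 were called higher and 1 lower, where 2.30% and 1.39% of all were. Without replicate 1 of CS/101-14, the library that stood apart, 28 of 122 were higher and 4 lower. In that fit, 1609 and 885 of all 17335 transcripts tested were. Without replicate 2 of CS/101-14, 2 were called, and none when replicate 3 of CS/101-14 or any of the 3 libraries of CS/110R was left out. VIT_10s0116g00410 had the largest difference, with 11.7, 26.7 and 26.2 TPM in CS/101-14 and 2.22, 1.71 and 1.53 TPM in CS/110R, a log2 fold change of 3.78 ± 0.42 (SE, adjusted p = 0.020 in edgeR's quasi-likelihood test), and its call was kept only without replicate 1 or 2 of CS/101-14, where the estimates over the 6 fits were 3.50 to 4.11. VIT_10s0116g00530 was the 1 called lower, at 52.0, 28.1 and 49.5 TPM against 94.5, 150.3 and 161 TPM, with −1.49 ± 0.28 (SE, adjusted p = 0.040), and its call was kept only without replicate 1 of CS/101-14.

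Against CS/SO4 at DAF45, 125 members were tested and 0 were called by edgeR's quasi-likelihood test, where 0% of all transcripts tested were called higher and 0.0171% lower. At an unadjusted p of 0.05 and the same fold threshold, 10 members were higher and 11 lower, where 730 of all 17564 transcripts passed. DESeq2's Wald test called 13 members, 6 higher and 7 lower, where it called 196 and 176 of all. Without replicate 1 of CS/101-14, 4 of 125 were higher and 2 lower. In that fit, 689 and 223 of all 17293 transcripts tested were, so no excess among the members is read.

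After the peak, at DAF105, 10 to 13 members were called between each pair of rootstocks. CS/101-14 had 11 of 138 tested members higher than CS/110R and 0 lower, where 2.09% and 0.322% of all transcripts tested were. Without replicate 1 or 2 of CS/101-14 this total became 2 and 7, and without replicate 1, 2 or 3 of CS/110R it became 0, 4 and 0. The largest was again VIT_10s0116g00410, at 5.67, 2.46 and 2.43 TPM against 0.949, 0.428 and 0.571 TPM, a log2 fold change of 2.49 ± 0.46 (SE; edgeR's quasi-likelihood test, adjusted p = 0.031), whose call was kept in 1 of the 6 fits that leave out a library, with 1.94 to 2.84 over them. CS/110R was also below CS/SO4 for this transcript, at −3.07 ± 0.35 (SE, adjusted p = 0.010), a call kept in all 6 fits.

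Against CS/SO4 at DAF105, CS/101-14 had 9 of 141 tested members higher and 4 lower, where 1.99% and 0.962% of all were, and without replicate 1, 2 or 3 of CS/SO4 the total was 7, 5 and 6. VIT_11s0016g02920 was higher, at 11.2, 4.28 and 10.4 TPM against 2.12, 0.841 and 1.34 TPM, with a log2 fold change of 2.55 ± 0.42 (SE; edgeR's quasi-likelihood test, adjusted p = 0.013), and its call was lost without replicate 2 or 3 of CS/SO4, over a range of 2.27 to 2.91. VIT_06s0004g05330 was lower, at 1.69, 1.29 and 2.08 TPM against 4.81, 5.43 and 5.81 TPM, with −1.71 ± 0.23 (SE, adjusted p = 0.0078). CS/110R had 3 of 141 members higher than CS/SO4 and 7 lower, where 0.983% and 1.40% of all were. Without replicate 1 of CS/110R, this total was 3, and it was 5 without replicate 1 or 2 of CS/SO4. VIT_18s0089g01270 was the largest of the higher ones, at 465, 228 and 531 TPM against 114, 115 and 43.0 TPM, with 2.13 ± 0.40 (SE, adjusted p = 0.022), and its call was lost without replicate 1 of CS/110R or replicate 1 or 2 of CS/SO4, over a range of 1.80 to 2.42.

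A comparison of the change from DAF45 to DAF105 between rootstocks, by an interaction term in edgeR's quasi-likelihood test, was added after seeing the data. Of 142 members tested, 7 were called higher and 8 lower for CS/101-14 against CS/110R, where 3.71% and 3.27% of all transcripts tested were. For CS/101-14 against CS/SO4, 9 were higher and 6 lower, against 1.83% and 1.16%, and for CS/110R against CS/SO4, 12 and 10, against 3.32% and 3.47%. The largest was VIT_10s0042g00960, which rose from 2.34, 1.40 and 1.30 TPM to 24.5, 22.5 and 26.2 TPM in CS/SO4 and stood at 12.4, 14.0 and 21.8 TPM before and 14.5, 12.5 and 14.0 TPM after in CS/110R, a difference in log2 fold change of −4.10 ± 0.45 (SE, adjusted p = 0.00018). The stages overlapped in CS/110R and were far apart in CS/SO4.

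Many of the 150 lay above every control mean in at least 1 heterograft at DAF105. The control side of this comparison was used by the rule, so it is a description. The group mean was above all 6 control means for 68 of the 150 in CS/101-14 at DAF105, 46 in CS/110R and 73 in CS/SO4, where 14.2%, 20.8% and 13.6% of the 12778 transcripts were. In at least 1 heterograft this held for 98 (25.1% of the 12778) and in all 3 for 27 (7.57%), among them VIT_04s0023g00530, VIT_04s0008g01580, VIT_04s0008g01520 and VIT_12s0035g01910. At DAF45, 18, 15 and 11 of the 150 were above every control mean in CS/101-14, CS/110R and CS/SO4, where 5.90%, 15.9% and 8.02% of the 12778 were. In at least 1 heterograft at DAF45, 30 of the 150 were above, about the same share as the 21.6% of the 12778. In all 3 heterografts at DAF45, 4 were above, where 1.71% of the 12778 were. These were VIT_12s0035g01910, VIT_18s0089g01270, VIT_09s0002g06790 and VIT_00s0187g00040, named after their values were seen, and 3 of the 4 were above at DAF105 in all 3 as well.

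The choice was repeated with 1 replicate number held out of every group, and the held-out libraries were then read. With replicate 1, 2 or 3 held out, the 150 then chosen shared 122, 114 and 123 with the 150 described. In the held-out libraries, all 3 heterografted libraries of DAF75 were above all 6 control libraries for 101, 122 and 128 of the 150 chosen, where 6.66%, 9.36% and 8.32% of all transcripts were. The median score was 0.73, 0.56 and 0.58 in the replicates used and 0.23, 0.50 and 0.54 in the one held out, so replicate 1 gave the weakest repeat.

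At the threshold of the rule, the scores ran on without a gap. Just inside were VIT_11s0016g00760 and VIT_01s0010g01200, both at 0.43, and VIT_06s0004g06290 at 0.42, and just outside VIT_14s0108g00830 at 0.42, VIT_00s2417g00020 at 0.42 and VIT_11s0118g00580 at 0.41. For VIT_01s0010g01200, the lowest heterografted library of DAF75, at 204 TPM, lay under the highest control library, at 224 TPM in CS/CS at DAF45. The 150 were spread over all 19 chromosomes and the unplaced sequence. Chromosome 6 held 14 of them, or 9.33% against 5.68% of the 12778 transcripts, chromosome 3 held 13 (8.67% against 3.86%) and chromosome 15 held 11 (7.33% against 3.51%), while chromosome 5 held 2 (1.33% against 5.73%). These shares were not tested, and neighbours are counted singly in them.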

How the data were processed

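Skin RNA of 15 groups of 3 libraries was used. According to the study's methods, reads were cleaned with fastp and placed with HISAT2 on the 12X assembly of V. vinifera, StringTie built the transcripts, and HTSeq did the counting. The estimated counts deposited by the authors are not normalized. Of those above 0, 87.6% are whole numbers, and the tool behind the fractions is not given in the sources used here. The authors also deposited TPM values, scaled for length and library size. Groups came from the sample titles, and only a note under a supplementary table says which control is self-grafted. Columns left unassigned numbered 0.

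Levels were read from TPM with a pseudocount of 1. Counts were rounded, scaled by TMM and tested in R 4.3.3 with edgeR 4.0.16 (quasi-likelihood test) where 3 or more of the libraries in the comparison held 10 or more counts, with Benjamini-Hochberg adjustment over all transcripts tested. DESeq2 1.42.0 was an alternative. Python 3.11.15 with numpy 2.4.6, pandas 2.3.3 and matplotlib 3.10.9 made tables and figures. The tests were tested on simulated data. Other alternatives were RLE size factors, every transcript with 1 count or more, a joint fit of the 45 libraries, a replicate block, other pseudocounts, minimum levels and units in the choice of the transcripts, and each replicate left out in turn.

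The members and lists were chosen with earlier results of these data known. Transcripts named are the 10 of highest score, the 10 of highest mean TPM, those in the study's lists, runs of 3 neighbours, the largest rise and fall called in each comparison, and the 3 on either side of the threshold. Others are said to be named after their values were seen, as are VIT_07s0005g01080 and VIT_09s0002g04580. The identifiers matched 0 entries of the reference gene table, so lists by product words and markers of other cell types could not be applied, and no sequence is shown.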

Additional observations from a re-analysis of the deposited data

Results flagged for a closer look

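For the named transcripts, the change from DAF45 to DAF105 was compared between rootstocks by an interaction term, in edgeR's quasi-likelihood test over 19118 transcripts, with adjusted p-values over all of them. This comparison was chosen after seeing the data, and a positive value means a larger rise or smaller fall on the rootstock named first. The results given with an adjusted p below were called at the thresholds used above. Some of the transcripts were named because they had the largest difference called. Calls lost when a library was left out are marked, and those lost in many fits are not read as a difference between rootstocks. Each value is a difference of log2 fold changes with its SE.

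VIT_10s0042g00960 rose in CS/SO4 and CS/101-14 but started high in CS/110R, with values of 2.27 ± 0.43 for CS/101-14 against CS/110R (adjusted p = 0.0047), −1.83 ± 0.45 for CS/101-14 against CS/SO4 (0.030) and −4.10 ± 0.45 for CS/110R against CS/SO4 (0.00018). The second was lost in 8 of 12 fits that leave out a library. VIT_19s0090g01470, with its fall in CS/SO4, gave −1.22 ± 0.34 (0.031), 1.61 ± 0.34 (0.017) and 2.83 ± 0.35 (0.00040) in the same order, and the first was lost in 6 of 12 such fits. VIT_06s0004g05330 gave −1.83 ± 0.48 (0.023), −3.35 ± 0.48 (0.0022) and −1.53 ± 0.48 (0.046), and the first and last were lost in 4 and 9 of 12.

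VIT_08s0007g07330 gave 3.27 ± 0.51 for CS/101-14 against CS/SO4 (adjusted p = 0.0035) and 3.93 ± 0.56 for CS/110R against CS/SO4 (0.00084), both kept in all 12 fits. For the same pairs, VIT_01s0010g01200 gave 1.51 ± 0.25 (0.0046) and 1.62 ± 0.25 (0.0013). VIT_10s0116g00530 gave 2.26 ± 0.40 for CS/101-14 against CS/110R (0.0035) and −2.38 ± 0.40 for CS/110R against CS/SO4 (0.0022). VIT_01s0011g06580 gave 2.06 ± 0.39 for CS/101-14 against CS/110R (0.0045) and 1.52 ± 0.38 for CS/101-14 against CS/SO4 (0.031), the latter lost in 8 of 12.

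For CS/101-14 against CS/110R, VIT_18s0001g11930 gave −2.26 ± 0.40 (adjusted p = 0.0036) and VIT_02s0087g00350 gave 1.46 ± 0.41 (0.029, lost in 7 of 12). VIT_04s0008g01520 gave −3.59 ± 1.06 for this pair. It had under 10 counts in every CS/110R library of DAF45, so its value is given without a p. For CS/101-14 against CS/SO4, VIT_10s0116g00410 gave −2.32 ± 0.55 (0.026, lost in 7 of 12). For CS/110R against CS/SO4, VIT_01s0150g00460 gave 3.03 ± 0.76 (0.018, lost without replicate 2 of CS/SO4 at DAF45), VIT_01s0026g02620 gave 2.81 ± 0.64 (0.011), VIT_04s0008g01580 gave 1.94 ± 0.61 (0.047, lost in 10 of 12) and VIT_14s0108g00740 gave 2.61 ± 0.83 (0.050, lost in 11 of 12).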

How the results depend on the processing

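The number of members called between DAF45 and DAF105 stayed within 1.5 times under every alternative run, with 59 to 70 called in CS/101-14, 71 to 79 in CS/110R and 72 to 77 in CS/SO4 when a library was left out. Comparisons between rootstocks moved more. With DESeq2's Wald test, 19 were called for CS/101-14 against CS/110R at DAF105 and 34 at DAF45, and 13 for CS/101-14 against CS/SO4 at DAF45. In 1 fit of all 45 libraries, the latter pairs gave 41 and 17 at DAF45, and CS/110R against CS/SO4 gave 5 at DAF105. With a library left out, the ranges were 0 to 14 (CS/101-14 against CS/110R), 5 to 15 (CS/101-14 against CS/SO4) and 3 to 10 (CS/110R against CS/SO4) at DAF105, and 0 to 32, 0 to 6 and 20 to 32 at DAF45. For the change between rootstocks, they were 8 to 26, 9 to 21 and 15 to 26. The 26 for CS/101-14 against CS/110R came without replicate 1 of CS/101-14 at DAF45 and the 8 without replicate 1 at DAF105. The 9 for CS/101-14 against CS/SO4 came without replicate 1 of either at DAF105. The log2 fold change of VIT_02s0087g00380 in CS/SO4, −0.05 and not called, changed sign over a range of −0.63 to 0.35. That of VIT_18s0089g01270 in CS/101-14, 0.28 and not called, changed sign over a range of −0.69 to 1.37. The causes were not tested.

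Whether the replicate numbers pair the samples is not known. The study's methods state that berries were collected in randomized block designs, and the labels name no block. Same-numbered libraries deviated together with r from −0.15 to 0.35 and not above 0.1 for all numbers in any comparison. With the replicate number as a block, the members called were 64, 81 and 82 from DAF45 to DAF105, 12, 0 and 26 at DAF45 and 9, 13 and 11 at DAF105. The repeated choice shared 146 of the 150 with a pseudocount of 0.1, 131 with a minimum of 1 TPM and 107 with TMM-scaled log2(CPM + 1). The number above every control mean at DAF105 was 89 to 92 in any heterograft and 21 to 28 in all 3 with a replicate number left out. Low counts limit VIT_15s0048g01280 most, with 1 to 5 counts per library at its peak.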
